A study of Danio rerio with 13 samples.

Results

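ZF4 is a fibroblast-like cell line that was established from zebrafish embryos, and 28°C is its normal culture temperature. The samples described here are the 4 of 13 in the series that hold cells kept at 28°C and analysed as transcriptome or methylome, and they were chosen by their culture label alone. They comprise 3 RNA-seq libraries (28°C replicates 1 to 3) and 1 MeDIP-seq library of 3 pooled replicates. The study states that sonicated DNA was pooled before enrichment, whereas the sample's label speaks of pooled MeDIP DNA. The other samples of the series are of cells kept at 18°C (5 or 30 days) and 1 library of input DNA. Of these, the 18°C MeDIP libraries enter through the merged peak set, which also holds their peaks. They also enter 1 alternative setting, peaks with reads in all 3 MeDIP libraries. No values of the other samples were used here. The cells were control ZF4 cells in DMEM/F12 medium with fetal bovine serum, and as 1 established line they represent neither a tissue nor several animals. All 32677 Ensembl genes of the RNA table and all 119436 of the 160561 merged methylation peaks that had reads at 28°C were described. The labels state 3 biological replicates for each condition. Whether the RNA and the DNA came from the same cultures is not given in the sources used here.

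Fibroblasts are mesenchymal cells that build the fibrous extracellular matrix, mainly collagens, and they are usually recognised by matrix genes, PDGF receptors and transcription factors of the twist, prrx and snail families. DNA methylation in vertebrates is placed on the cytosine of CpG pairs, is copied after replication by Dnmt1 with Uhrf1, and is set anew by Dnmt3 enzymes. Most of the vertebrate genome is methylated, bodies of active genes included, whereas CpG-rich promoters of active genes are mostly free of it. In methylated DNA immunoprecipitation sequencing (MeDIP-seq), methylated fragments are enriched and sequenced, so a peak marks a stretch with more methylated DNA than its surroundings and its read number is a relative measure.

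Replicate 3 stood apart from replicates 1 and 2. Total counts were 42137732, 40632758 and 22269276 in replicates 1, 2 and 3. Across the 32677 genes, Pearson's r of log2(RPKM + 1) was 0.989 between replicates 1 and 2, 0.911 between 1 and 3 and 0.922 between 2 and 3, where RPKM are the reads per kilobase of gene, scaled to the library's total. The 10 genes with the most counts took 4.99% and 5.09% of all counts in replicates 1 and 2 and 15.1% in replicate 3. Of the 14250 genes with a mean RPKM of at least 1, 33 were 4-fold or more apart between replicates 1 and 2 on the scale of log2(CPM + 1). In replicate 3, 359 of these genes (2.52%) were 4-fold or more above both other libraries and 634 (4.45%) were 4-fold or more below both. The biological coefficient of variation, edgeR's estimate of the spread between libraries beyond counting error, was 0.491 over the 3 libraries and 0.237 without replicate 3. Values are therefore given for each library. With 3 libraries of 1 condition there is no group comparison, and none of the differences below was tested.

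Some gene lists, chosen with earlier results of these data known, differed in replicate 3. They hold only a few of the genes that were 4-fold or more apart there. Of 19 cell proliferation genes found in the table, 18 were lower in replicate 3 than in both other libraries, 16 of them by 4-fold or more, and the median difference was -3.31 on the log2(CPM + 1) scale. Cyclin B1 (ccnb1), which drives entry into mitosis, had an RPKM of 56.5, 32.9 and 0.41 in replicates 1, 2 and 3. Its partner kinase cdk1 had 52.5, 34.2 and 0.30. The replication clamp pcna had 42.5, 64.8 and 4.66, and the proliferation antigen mki67 had 20.3, 25.6 and 1.53. The single member that was higher in replicate 3 was cdkn1bb, an inhibitor of cyclin-dependent kinases, with 13.9, 13.3 and 25.5.

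Genes of the translation machinery were also lower in replicate 3. This held for 77 of 79 cytosolic ribosomal protein genes, whose median RPKM was 610, 608 and 298 in replicates 1, 2 and 3. Among the fibroblast and mesenchyme markers, 20 of 28 were higher in replicate 3 than in both others and 4 were lower than in both, while of the 14250 genes with a mean RPKM of at least 1, 6525 were higher and 5550 lower. The matrix proteoglycan lumican (lum) had an RPKM of 3.59, 5.61 and 108, and periostin (postnb), a secreted matrix protein, had 3.94, 2.08 and 59.0. A fibronectin gene listed as FN1, which is not in the marker list, had 0.70, 0.76 and 119. The fibronectin marker of the list, fn1a, was among the 4 lower ones, with 17.2, 12.4 and 9. Clustered protocadherins, cell adhesion proteins encoded in tandem arrays, were higher in replicate 3 for 51 of 52 genes, with a median RPKM of 0.845, 0.915 and 2.64. With counts scaled by TMM or by DESeq2 size factors, 18 of 28 mesenchyme markers were higher and 7 lower, and the proliferation, ribosomal protein and protocadherin counts were 18 lower, 78 lower and 51 higher. Of the 14250 genes, 5584 were then higher and 6750 lower with TMM, and 5599 higher and 6714 lower with DESeq2 size factors. These scalings lowered the median of expressed genes in replicate 3 by 0.16 and 0.15 on the log2 scale relative to the other libraries. Culture density, passage and library preparation of the 3 replicates are not given in the sources used here, and their part in these differences was not tested. The label of replicate 3 as cells at 28°C was taken as given, and no measurement described here checks it, so each value of replicate 3 rests on that label.

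**Figure D1:**
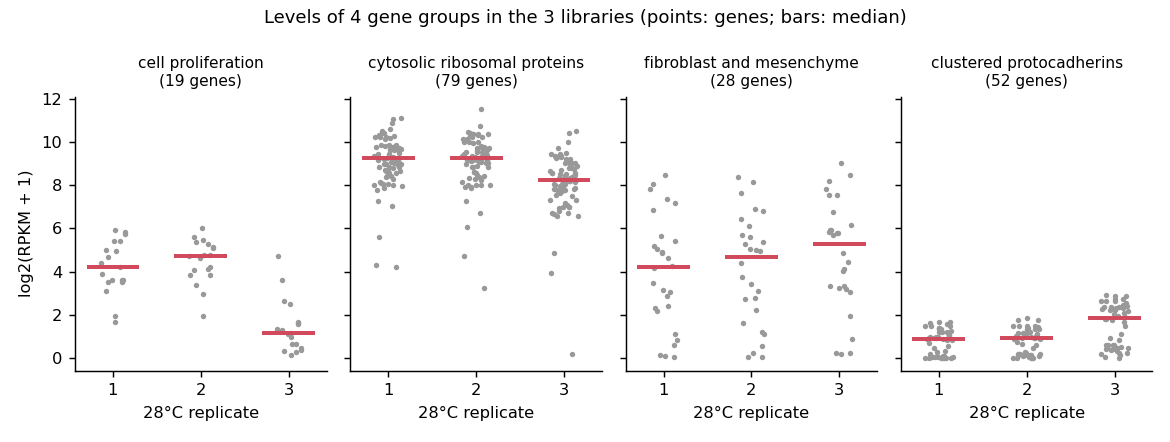
RPKM of 4 gene groups in the 3 libraries at 28°C, on a log2(RPKM + 1) axis, with a point for each gene and a bar at the group's median. The points of replicates 1 and 2 lie at similar heights, while in replicate 3 proliferation and ribosomal protein genes lie lower and protocadherins higher.

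Single genes with the largest spread were taken in each direction, and steap4 among them was also far apart between replicates 1 and 2. On the higher side in replicate 3, the 5 genes with the largest SD were 3 uncharacterised genes, the ferrireductase gene steap4 (RPKM of 5.80, 0.09 and 74.4) and FN1. On the lower side they were ccnb1, the condensin subunit smc2 (22.8, 25.9 and 0.34), the topoisomerase top2a (41.8, 37.3 and 0.57), the mitotic kinesin kif11 (17.8, 13.4 and 0.08) and the importin kpna2 (143, 82.7 and 2.08). The symbol zgc:158463, given to 2 gene IDs, took 0.15%, 0.25% and 9.41% of all counts in replicates 1, 2 and 3. Counts were shared among near-identical copies in some cases: 35 genes with at least 100 counts had the same counts and length as another ID, so their levels cannot be told apart.

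A gene was taken as expressed at an RPKM of at least 1. This held for 40.7%, 42.8% and 43.1% of genes in replicates 1, 2 and 3 (42.2% ± 1.29, SD, n = 3), and 12212 genes (37.4%) reached it in all 3 libraries. Without replicate 3 the share was 40.1%. There were 880 genes at or above this level in replicates 1 and 2 and below it in replicate 3, and 1121 with the reverse. No count was found in any library for 8015 genes (24.5%). For a gene of median length, the limit that a count of 0 allows (3 counts) was an RPKM of 0.039, 0.040 and 0.073. Few genes were very abundant: 259 had an RPKM of at least 100 in every library.

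Among genes with a symbol, the most abundant RNAs were mostly those of the mitochondrion and the ribosome. Of the 20 such genes with the highest mean RPKM, 5 were mitochondrial genes and 7 carried a ribosomal protein symbol. IDs without a symbol were not ranked, and the highest RPKM in replicates 1 and 2 (5344 and 3741) lay outside the ranked genes. The cytochrome oxidase subunit gene MT-CO1 had an RPKM of 2719, 3590 and 2875. Ictacalcin (icn), a calcium-binding protein of the S100 family, had 3092, 3511 and 2152, and s100a10b of the same family had 1236, 1244 and 1360. The ubiquitin-like gene isg15, known as an interferon target, had 750, 750 and 2130. The ribosomal protein gene rps20 had 2120, 2922 and 1361. The cytoskeletal beta-actin gene actb2 had 806, 1091 and 725. Among genes with a symbol, only the zgc:158463 IDs ranked above MT-CO1 by mean RPKM. They did so through replicate 3, where they had 59805 and 51576, against 904 and 874 in replicate 1. Of 79 ribosomal protein genes, 78 had an RPKM of at least 1 in all libraries, against 37.4% of all genes.

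Mesenchymal markers were expressed at high levels. Of the 28 fibroblast and mesenchyme markers found, 23 (82.1%) had an RPKM of at least 1 in all 3 libraries. Among all genes the share was 37.4%, and the markers are longer, with a median of 4419 bases against 1842. The type I collagen gene col1a1a, the main fibrous collagen of connective tissue, had an RPKM of 262, 198 and 293 (251 ± 48.7, SD, n = 3). The matrix glycoprotein osteonectin (sparc) had 354, 280 and 513. The mesenchymal homeobox gene prrx1a had 228, 326 and 223, and its paralogue prrx1b had 18.4, 30.1 and 21.0. The repressor snai1a, known from epithelial-mesenchymal transition, had 161, 118 and 15.6. All 3 twist genes of the list were expressed, with twist1b highest at 23.6, 30.9 and 16.7. The PDGF receptors had 28.0, 47.9 and 53.7 (PDGFRA) and 28.7, 31.9 and 54.2 (pdgfrb). N-cadherin (cdh2) had 35.4, 51.2 and 59.6. The libraries were close for prrx1a and twist2, whereas snai1a, lum and postnb were far apart between replicate 3 and the others.

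Some genes that are usual in fibroblasts were near the floor. Decorin (dcn) had an RPKM of 0.05, 0.03 and 0.18, thy1 had 0.07, 0.17 and 0.16, and col6a1 had 0.11, 0.06 and 0.19. Vimentin (vim), an intermediate filament of mesenchymal cells, had 0.82, 1.21 and 0.85 at the only ID matched to that symbol. The symbols col3a1 and fn1b of the list were not matched to an ID, although the fibronectin ID listed as FN1 was present.

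Keratins and E-cadherin were expressed beside these markers. The simple-epithelium keratins krt8 and krt18b had an RPKM of 320, 335 and 528, and of 647, 587 and 605, which placed both above col1a1a in all 3 libraries. The related krt18a.1 had 107, 153 and 297. E-cadherin (cdh1), the adhesion molecule of epithelial junctions, had 25.5, 27.9 and 31.2 (28.2 ± 2.84, SD, n = 3). Other defining epithelial genes were at or near 0. The adhesion gene epcam, the claudin cldn7b and the splicing regulator esrp2 had no count in any library, and cldnb, esrp1 and grhl3 did not exceed 0.09. In all, 4 of 13 epithelial markers were expressed in every library (30.8%, against 37.4% of all genes). The keratin krt4 had 0.74, 1.81 and 38.7, so it was high in replicate 3 only, unlike krt8, krt18b and cdh1. Whether the same cells carried both sets of RNA cannot be told in bulk samples, where fewer cells of a type and less RNA per cell cannot be told apart.

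Markers of other cell types were mostly near 0. None of the 5 endothelial, 10 neural, 7 pluripotency and 6 liver and gut markers found reached an RPKM of 1 in all 3 libraries. Among all genes 37.4% did, and 11741 of 32677 were under 0.1 in all 3. The lists are short, so small departures from these shares cannot be read from them. The pluripotency factor nanog had no count, and the 7 genes of that list summed to at most 0.14 in any library. The neural RNA-binding gene elavl3 had 2.95, 1.92 and 0.18. Of 12 blood markers, runx1 alone was expressed in all libraries. The ID used for it had 19.2, 26.3 and 37.4, and a further ID with that symbol had 12.99, 15.3 and 24.5. The leukocyte plastin lcp1 had 2.23, 1.62 and 0.09, and the other blood markers did not exceed 0.34. Of 9 muscle markers, the myogenic factor myod1 had 17.7, 35.0 and 12.9, and the desmin gene (listed as DES) had 5.21, 2.70 and 2.89, while the later myogenic factor myog and the contractile genes of the list were under 1. Of 12 germ cell markers, piwil2 alone was expressed, with 2.74, 9.40 and 13.03, and among 6 pigment cell markers only the melanin enzyme gene DCT was, with 4.48, 4.20 and 6.66. Of 7 cartilage and bone markers, the chondrogenic factor sox9a alone was expressed in all libraries, with 4.37, 5.01 and 15.8. The bone factor runx2a had 0.69, 0.86 and 10.9, and the other 5 stayed under 1. The cartilage collagen col2a1a was at or under 0.02, but a further ID listed as COL2A1 had 0.25, 0.40 and 8.47.

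**Figure D2:**
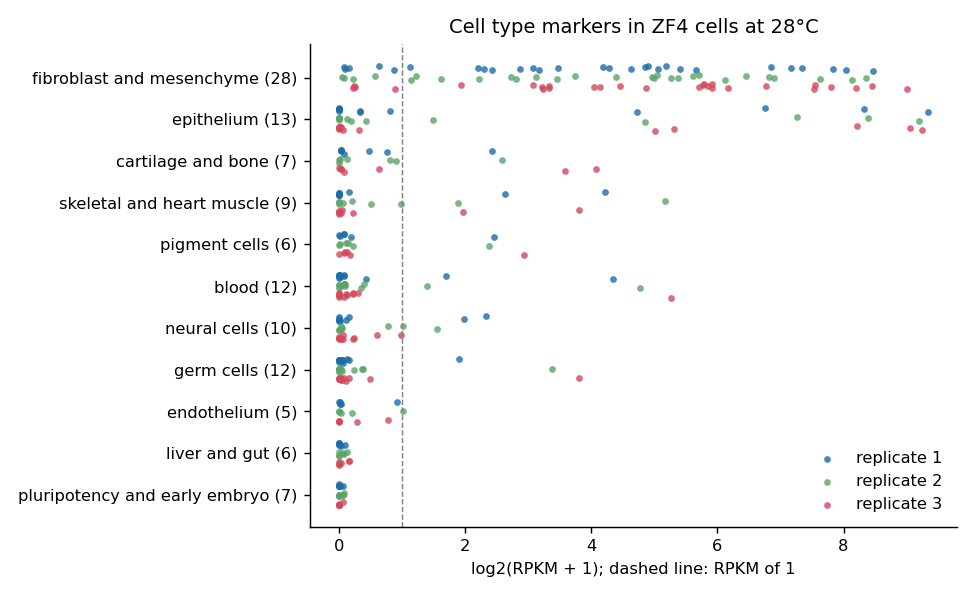
Levels of cell type markers in the 3 libraries at 28°C, as log2(RPKM + 1), with a point for each gene and library and the number of genes found beside each list. Mesenchymal genes spread up to the RPKM of sparc, a few keratins reach the same levels, and most markers of other cell types lie left of the dashed line at an RPKM of 1.

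Hox genes, which encode positional identity along the body axis, were expressed from a restricted part of the clusters. Of 49 gene IDs with a hox symbol, 10 had an RPKM of at least 1 in all 3 libraries (20.4%, against 37.4% of all genes). These were 7 of 15 in the hoxb clusters and 3 of 12 in the hoxa clusters. None of 15 hoxc and 7 hoxd genes was expressed, and the highest value of any of them was 0.72 and 0.07. All 10 expressed genes had a paralogue number from 1 to 7, where 10 of 23 genes were expressed, while none of the 26 with a number from 8 to 13 was. Among the latter, both IDs of hoxa9a passed an RPKM of 1 in replicate 2 alone, with 1.36 and 2.13. The highest was hoxb5a with 77.2, 99.8 and 86.6 (87.8 ± 11.4, SD, n = 3), followed by hoxb6a with 33.0, 55.6 and 61.2 and hoxb4a with 21.97, 33.9 and 31.0. Next came hoxa4a with 12.5, 17.5 and 15.5, hoxa3a with 7.28, 13.4 and 12.6, and hoxb3a with 6.31, 15.0 and 8.51. The ranges of hoxb5a and hoxb6a did not overlap, whereas those of hoxa3a and hoxb3a did. No hox gene was 4-fold apart between replicate 3 and both others.

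**Figure D3:**
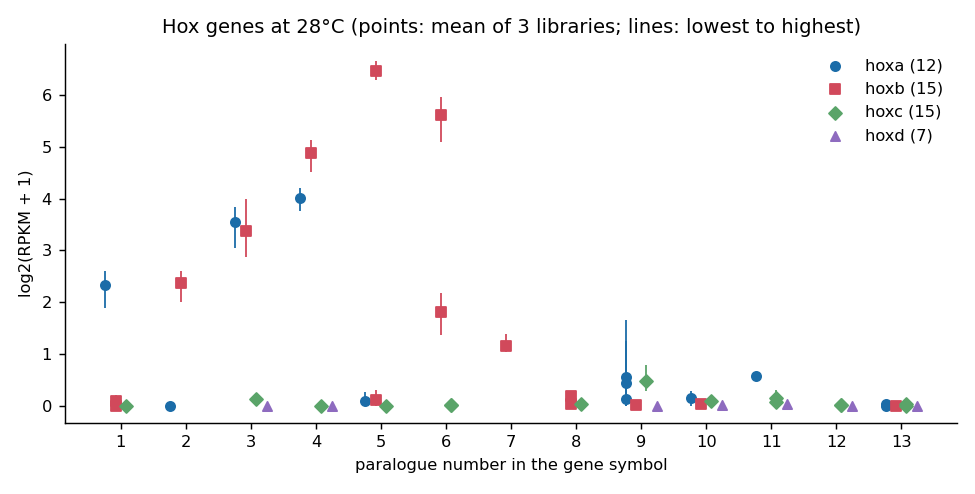
Levels of 49 hox gene IDs at 28°C, as log2(RPKM + 1), by the paralogue number in the symbol. Points are means of 3 libraries and lines run from the lowest to the highest library. Genes of the hoxa and hoxb clusters with low numbers are expressed, hoxb5a most, and the means of the genes from 8 to 13 lie under an RPKM of 1.

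The 63 gene IDs with a collagen symbol covered a wide range of levels. There were 25 (39.7%, against 37.4% of all genes) with an RPKM of at least 1 in every library and 15 under 0.1 in every library, against 11741 of all 32677 genes. The highest means over the 3 libraries were those of the fibrillar chains col1a1a, col1a2 (143, 111 and 348), col1a1b (114, 86.8 and 185) and col5a1 (49.7, 68.6 and 185). The basement membrane chains col4a1 and col4a3 did not exceed 0.18. An ID with the symbol col5a3b was at 153, 102 and 3.75, above col1a1b and col5a1 in replicates 1 and 2 and above col1a2 in replicate 1. The transmembrane collagen col17a1b was at 18.0, 12.7 and 0.55, so both were lower in replicate 3. In that library 40 of 63 collagen IDs were higher than in both others and 11 lower (38 and 14 with TMM scaling). Of all 32677 genes, 11229 were higher and 8170 lower. Of the 14250 genes with a mean RPKM of at least 1, 6525 were higher and 5550 lower (5584 and 6750 with TMM scaling).

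The genes that place, copy, read and remove DNA methylation were expressed at low to moderate levels. Of 19 found, 10 had an RPKM of at least 1 in all libraries (52.6%, against 37.4% of all genes). The maintenance enzyme DNMT1 had 6.74, 10.1 and 2.61, and its partner uhrf1 had 3.41, 5.02 and 1.31 at the ID used, a nearly identical ID having 3.41, 5.02 and 1.32. Both were lowest in replicate 3, as the proliferation genes were. Of the de novo enzymes, dnmt3bb.1 was highest with 3.99, 5.31 and 3.49, and dnmt3aa and dnmt3ab had 0.51, 0.95 and 3.32, and 0.38, 0.56 and 2.63. The oxidising enzyme tet3 had 4.47, 9.78 and 11.2, TET2 had 1.28, 1.86 and 2.47 and TET1 had 0.46, 0.52 and 2.93. Thymine DNA glycosylase (tdg.1), which removes oxidised cytosine, had 9.53, 8.26 and 6.33, and the methyl-CpG binding gene mbd3a had 10.98, 10.9 and 15.3. Of these 19 genes, 18 had at least 1 methylation peak with reads (94.7%, against 51.9% of all genes) and 14 had an exon peak (73.7%, against 26.9%). They are long genes, with a median length of 8304 bases against 1842 for all genes.

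Some of the genes that the study followed in its cold experiments were listed for their level at 28°C. The study chose them on data of this series, so they are no independent set. Of 17 found, 8 were expressed in every library (47.1%, against 37.4% of all genes). The redox regulator txnipa was highest with an RPKM of 311, 311 and 584. The nuclear receptor gene esrra had 3.73, 4.01 and 5.90, the glutathione transferase gstk1 had 11.3, 10.2 and 32.3, and the histone demethylase kdm4ab had 4.99, 9.56 and 11.8. The water channel gene aqp1a.2 had no count and the calcium channel subunit cacng6a did not exceed 0.04. Both of these genes, like esrra, had 2 promoter peaks with reads at 28°C.

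At 28°C, 45138 of the peaks with reads lay in introns, 45037 between genes, 15247 in exons, 10101 in promoters and 3913 downstream of genes, by the authors' annotation. Peaks in CpG islands, the stretches rich in CpG pairs, made up 10.2% of promoter peaks (95% Wilson interval 9.61 to 10.8), 9.27% of exon peaks (8.82 to 9.74), 6.90% of downstream peaks (6.15 to 7.74) and 5.11% of intron peaks (4.91 to 5.31). These intervals cover counting error only, because the 1 pooled library has no replicate. Median peak levels were alike in all classes, from 6.05 RPM (reads scaled to the library's total on peaks) per kilobase in exons to 6.31 downstream. A merged peak in a CpG island had reads at 28°C more often than one outside, with 87.0% against 74.4% in promoters and 83.9% against 75.1% in exons. Among peaks with reads, those in islands were longer, with medians of 1274 against 950 bases in promoters and 1222 against 965 in exons. Their median level was lower, with 5.34 against 6.17 and 5.43 against 6.10 RPM per kilobase. The part of peak length in the share with reads was not tested. Peaks with reads had at least 3, so a count of 0 may not mean a stretch without reads. Peaks with reads and a gene name covered 16959 genes, among them 10479 with an intron peak, 8791 with an exon peak, 6493 with a promoter peak, 3128 with a downstream peak and 686 with a promoter peak in a CpG island. Promoter peaks carried a gene name less often than exon peaks, with 7752 of 10101 against 14908 of 15247. The assignment to genes was thus less complete for promoters.

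Genes with a methylation peak in an exon or intron were expressed at a higher level than genes without one. The median RPKM of genes with an exon peak was 2.11, 2.57 and 3.26 in replicates 1, 2 and 3, against 0.07, 0.10 and 0.12 for those with none. On the log2(RPKM + 1) scale the medians differed by 1.54, 1.70 and 1.93 (1.72 ± 0.20, SD, n = 3 libraries). For intron peaks the difference was 1.33, 1.46 and 1.69 (1.49 ± 0.18), and for downstream peaks 0.70, 0.79 and 0.89 (0.80 ± 0.09). Promoter peaks gave 0.54, 0.63 and 0.70 (0.62 ± 0.08), and promoter peaks in CpG islands 0.46, 0.51 and 0.51 (0.50 ± 0.03). Against all genes without that kind of peak, genes with it were thus higher in all 3 libraries. The direction turned for 3 kinds when the genes compared all had a peak of some kind: the difference was then -0.66 for promoter, -0.47 for CpG island promoter and -0.25 for downstream peaks, and 1.13 for exon and 0.75 for intron peaks. The libraries share the 1 MeDIP library, and 3 paired values allow no exact two-sided p below 0.25, so these are descriptions. Replicate 3, the library that stood apart, gave the largest value for each kind of peak, and without it the mean was 1.62 for exon and 0.58 for promoter peaks.

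The combination of peaks separated promoters from gene bodies. The 9738 genes with an exon or intron peak and no promoter peak had a median RPKM of 1.86, 2.24 and 2.63. The 4008 genes with peaks in both had 1.39, 1.73 and 2.31. The 2485 genes with a promoter peak and no exon or intron peak had 0.14, 0.20 and 0.23, and the 15718 genes with no peak of any kind had 0, 0.02 and 0. In the order of these medians, genes with body peaks alone stood above those with both, and these above genes with a promoter peak and none in the body, in each library. Their median lengths differed, with 3215.5 bases for body peaks alone, 3655.5 for both and 1653 for promoter without body peaks. The number of exon peaks went with the level: 61.5% ± 2.11 (SD, n = 3 libraries) of genes with 1 exon peak were expressed, 66.3% ± 3.67 with 2, 74.5% ± 4.62 with 3 or 4 and 82.3% ± 4.96 of the 313 genes with 5 or more. This order held in each library, although neighbouring steps overlapped within their SD. Genes with more exon peaks were also longer, with a median length of 3075 bases at 1 peak and 7840 at 5 or more.

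Across expression classes, the share of genes with a promoter peak was lowest at an RPKM of 0, and above 0 it was lower in the most expressed genes than in those under 0.1. It was 10.7% to 11.8% among genes with an RPKM of 0, 25.1% to 25.8% above 0 and under 0.1, and 24.4% to 24.9% from 0.1 to under 1. In the 5 equal classes of expressed genes it ran from 21.1% to 25.7%, and in the highest class it was 21.1%, 21.5% and 21.4% in replicates 1, 2 and 3, against 25.3%, 25.1% and 25.8% in the class above 0 and under 0.1. That step down was seen with each RNA library (SD 0.23 and 0.34 between them). Because all of them share the 1 MeDIP library, this SD gives no error for a peak share. With the genes at 0 included, the highest class exceeded all genes under an RPKM of 0.1 by 6.63 percentage points (SD 0.85, n = 3). Genes at 0 had a median length of 375 to 512 bases, and 26.7% to 29.2% of them were named for any merged peak. Among the genes named for a merged peak, the gap was -9.46 percentage points, so its sign depended on whether the other genes were included. Exon peaks showed a different course. Their share was 7.18% to 7.79% at 0, 24.5% to 29.4% from 0.1 to under 1, 32.8% to 37.7% in the lowest class of expressed genes, 43.7% to 46.6% in the middle class and 39.0% to 43.3% in the highest. Intron peaks had the same shape, with a maximum of 50.8% and 37.3% to 43.0% in the highest class.

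**Figure D4:**
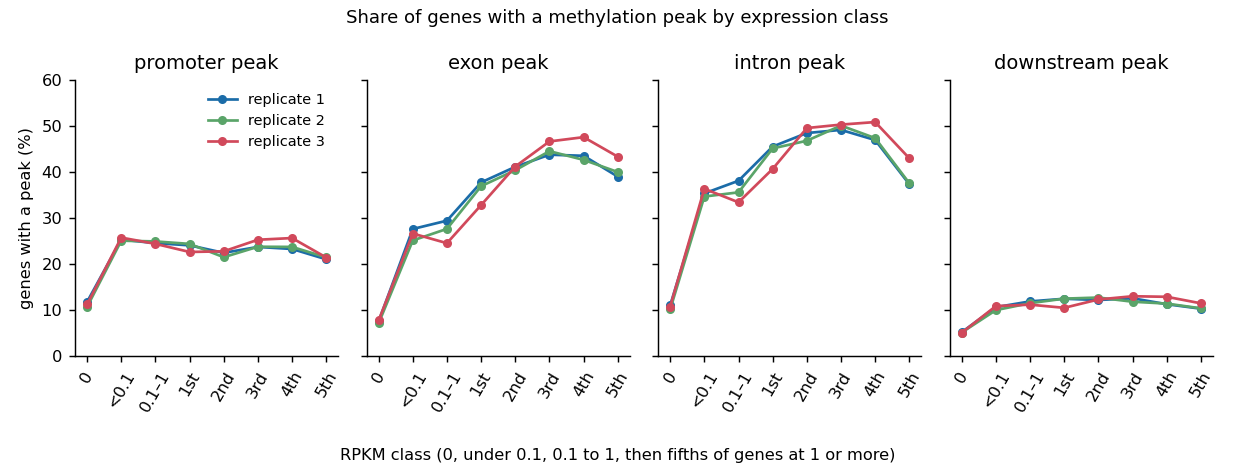
Share of genes with a methylation peak with reads at 28°C, in percent, against RPKM class in each library. Among genes above 0, the promoter share runs from 25.8% to 21.1%, lowest in class 5, the downstream share stays between 10.03% and 13.04%, and the exon and intron shares climb to classes 3 or 4 of expressed genes and are lower in class 5.

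Gene length moved with both measures, so the comparison was repeated within 5 classes of equal size by the gene length that the table gives. This length cannot be the span on the chromosome: ptprga, at 8526 bases, had 87 intron peaks, and intron peaks had a median length of 939 bases. The classes therefore do not adjust for the span in which peaks can fall. In the shortest class (up to 546 bases) genes with a promoter peak were still higher, by 0.34, 0.56 and 0.51 on the log2(RPKM + 1) scale. From 547 to 1356 bases the difference was 0.00, 0.02 and 0.09. In the 3 longer classes genes with a promoter peak were lower than those without. The difference was -0.25, -0.28 and -0.21 from 1357 to 2462 bases, -0.40, -0.42 and -0.24 up to 4583 bases and -0.19, -0.21 and -0.11 above that. Averaged over the length classes, the promoter difference was -0.05 ± 0.06 (SD, n = 3), against 0.62 without length classes. The value in the shortest class was close to 0 when genes named for no peak were left out: among genes named for a merged peak it was 0.08, 0.13 and -0.02 there, and the mean was -0.23, -0.67, -0.56 and -0.25 in the longer classes. Genes with an exon peak were higher in every length class and every library, from 1.00, 1.15 and 1.61 in the shortest to 0.62, 0.66 and 0.90 in the longest, and by 0.98 ± 0.18 on average. Genes with an intron peak were higher by 0.65 ± 0.14 on average, and by only 0.08, 0.05 and 0.43 in the longest class. Among genes with at least 10 counts in each library, the exon difference was 0.12, 0.16 and 0.41. Promoter, intron and downstream peaks differed in sign between libraries at this filter, with -0.12, -0.11 and 0.02 for promoter, -0.16, -0.15 and 0.10 for intron and -0.12, -0.13 and 0.09 for downstream peaks, positive in replicate 3 alone.

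**Figure D5:**
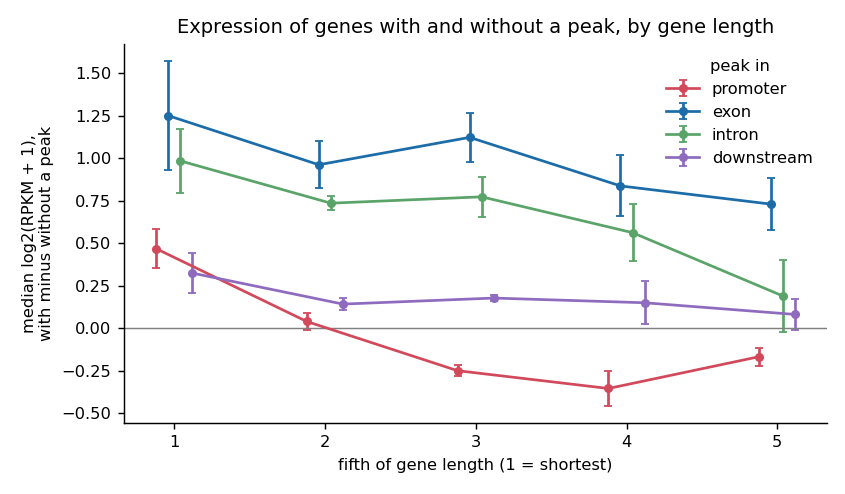
Difference in median log2(RPKM + 1) between genes with and without a peak, by class of gene length (5 classes of equal size), for 4 kinds of peak. Points are means and bars SD over 3 libraries. The exon line stays above 0 throughout, and the promoter line lies below it in the 3 longer classes.

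The level of a promoter peak had little relation to the level of the gene, and that of an exon peak a weak one. Across 6493 genes, Spearman's rho between the highest promoter peak in RPM per kilobase and RPKM was 0.01, 0.01 and 0.02 in the 3 libraries, and across 8791 genes with an exon peak it was 0.04, 0.04 and 0.08. These are correlations across genes, which are not independent replicates, and all points share the 1 MeDIP library. In the highest of 5 classes of promoter peak levels (at least 11.05 RPM per kilobase), 48.4%, 51.0% and 53.1% of genes were expressed, and in the lowest class 47.0%, 49.9% and 51.7%, so the highest was slightly above the lowest in each library. For exon peaks, the median RPKM was 2.65, 3.18 and 4.34 in the highest class and 1.93, 2.32 and 2.71 in the lowest, again higher in each library. The median gene length was 4194 bases in the highest exon class and 3007 in the lowest.

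The genes named here for a promoter peak in a CpG island ranged from near 0 to an RPKM of 450. The study counts regions up to 3 kb upstream of the transcription start as promoter. A peak so labelled therefore need not lie at the start itself. The highest such peak, at pus7, an RNA pseudouridine synthase gene, lay at chr25:281864-287062 (Zv9/danRer7) with 1614 reads and 105 RPM per kilobase. The RPKM of pus7 was 42.8, 32.5 and 6.73. Rank 2, at the guanine nucleotide exchange factor gene arhgef11 (chr7:6317467-6318775, 47.3 RPM per kilobase), went with 1.17, 1.44 and 4.12. Rank 4, at ptgfrnb (chr1:1697090-1698005, 32.9 RPM per kilobase), went with 0, 0 and 0.04. Of the 10 genes with the highest promoter island peaks, 5 were expressed in all libraries and 3 were under an RPKM of 0.1 in all. Among all genes, 37.4% were expressed in all libraries and 11741 of 32677 were under 0.1 in all. Of the 686 genes with such a peak, 46.6%, 49.3% and 50.0% were expressed in replicates 1, 2 and 3. The counts of 5 and 3 therefore do not set these 10 genes apart. The 10 most expressed genes with such a peak had peaks from 1.90 to 11.7 RPM per kilobase, around the median of 5.34 for all promoter peaks in CpG islands. Some of these peaks held few reads, with 6 at axl, 7 at TMBIM6 and 8 at YPEL5. For igfbp1b, an insulin-like growth factor binding protein, the peak at chr2:169852-172016 had 18 reads (2.82 RPM per kilobase) and the RPKM was 450, 317 and 21.1. The sterol regulator srebf2 had 118, 89.9 and 15.8, with a peak of 6.21 RPM per kilobase. Of these 10 most expressed genes, 9 were lower in replicate 3 than in both others. Among the 14250 genes with a mean RPKM of at least 1, 5550 were lower. The 10 were picked by their mean over these same libraries. The exception, b2ml, a beta-2-microglobulin-like gene, was higher, with 79.0, 86.3 and 140.

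Gene groups differed in where their peaks lay. Of 52 clustered protocadherins, 21 (40.4%) had a promoter peak and 1 an exon peak, whereas among all genes 19.9% had a promoter peak and 26.9% an exon peak. No promoter peak of this group lay in a CpG island by the authors' mark. Such peaks were a small part among all genes too, at 686 of the 6493 genes with a promoter peak. Genes of such arrays share exons, so counts of its members may be split between IDs. Ribosomal protein genes had few peaks: 24 of 79 had any peak (30.4%, against 51.9% of all genes) and 11 an exon peak, with a median length of 1644 bases. Among the 20 most abundant genes with a symbol, 4 had a peak with reads. The mitochondrial genes could have none, because the peaks cover chromosomes 1 to 25. The same holds for any other gene outside these chromosomes, and in all comparisons such genes count among those without a peak. Of the 10 expressed hox genes 3 had a peak of any kind, and of the 39 others 13. The matrix gene col5a1 had 7 exon and 18 intron peaks, whereas col1a2, sparc and PDGFRA had none. Among genes with a symbol, the receptor phosphatase gene ptprga had the most peaks, 92, and its RPKM was 9.42, 14.7 and 56.9. CSMD3 had 60 peaks and an RPKM of 0, 0 and 0.03.

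Pathways annotated in the RNA table were ranked by their median level. Of 230 pathways with at least 10 genes, those with the highest median level, named after their values were seen, were the ribosome (80 genes, median RPKM of 625, 637 and 319), the proteasome (55 genes, 55.6, 50.9 and 38.1) and oxidative phosphorylation (136 genes, 43.3, 47.6 and 26.1). Over all genes the median was 0.28, 0.37 and 0.42. The lowest medians included neuroactive ligand-receptor interaction, where 40 of 510 genes were expressed in all libraries (7.84%, against 37.4% of all genes). DNA replication (42 genes) had medians of 10.2, 14.6 and 2.64, and steroid biosynthesis (20 genes), which makes cholesterol, had 19.1, 15.2 and 3.44. Replicate 3 was thus lowest for both, but other pathways were highest there, such as mTOR signaling (65 genes, 3.21, 4.06 and 6.86).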

How the data were processed

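Methylated DNA was measured in 1 pooled MeDIP-seq library and RNA in 3 libraries of ZF4 cells at 28°C. The members and gene lists were chosen with earlier results of these data known. For MeDIP-seq, the authors filtered reads, aligned them with Bowtie2 to Zv9/danRer7, found peaks with MACS in each of 3 libraries (28°C and both 18°C times), merged them with Bedtools and deposited read counts and RPM (reads scaled to the total on peaks) for each merged peak, so the peak set also holds peaks found only in the cold. The fewest reads on a peak with reads was 3, and 2952954 reads lay on peaks. The other 41125 merged peaks had 0. No peak had a count between 0 and 3, so a 0 may not mean that the stretch held no reads, which was not tested. For RNA, the authors deposited counts and RPKM for each Ensembl gene; the aligner, counting and strand settings of this assay are not given in the sources used here. RPKM equalled counts per kilobase of the table's gene length, scaled to each library's total count.

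Symbols came from the gene-name table (21028 IDs) and otherwise from the best-hit column of the RNA table at 90% identity or more (3392 IDs), 24420 of 32677 in all; where both existed, 92.4% of 15021 were alike. Peaks were joined to genes by the gene ID, which 69675 of 74399 genic peaks with reads carried. The ID was present for 7752 of 10101 promoter peaks and 749 of 1029 promoter peaks in CpG islands. It was present for 14908 of 15247 exon, 43612 of 45138 intron and 3403 of 3913 downstream peaks. A peak without an ID was assigned to no gene, so some genes may count as without a promoter peak for that reason. A gene was expressed at an RPKM of at least 1, levels were compared as log2(RPKM + 1), and differences between libraries as log2(CPM + 1). Spread was estimated with edgeR 4.0.16 in R 4.3.3 after its filter on low counts (16927 genes kept), and DESeq2 1.42.0 size factors were an alternative. Tables were handled with Python 3.11.15, pandas 2.3.3 and numpy 2.4.6. Scripts were tested on simulated data. With 1 condition no test was made. The text names list members, the 20 genes with the highest mean RPKM, and 10 genes each by CpG island promoter peak and by level among those with such a peak. It also names 5 genes each by spread, in either direction, and by number of peaks. Except for those named by spread, the ranked genes were taken among IDs with a symbol. Of all these the text describes a part. Other floors, pseudocounts, filters, scalings, peak definitions, length classes and omission of each library were tried. The authors' comparison columns (ratios, fold changes, p-values and FDR between temperatures, and a mark of change) and 9 columns headed TPM were not used, and no sequence is printed because no genome of the build Zv9 was used here.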

Additional observations from a re-analysis of the deposited data

How the results depend on the processing

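The share of genes expressed in all 3 libraries (37.4%) was 43.4% at a floor of 0.5 RPKM and 29.5% at 2, and 37.8% to 40.1% without 1 replicate. The median differences for promoter, CpG island promoter, exon, intron and downstream peaks (0.62, 0.50, 1.72, 1.49 and 0.80) became, in that order, 1.55, 1.17, 3.79, 3.55 and 1.78 with a pseudocount of 0.1, -0.070, -0.015, 0.23, -0.070 and -0.054 among genes with at least 10 counts in each library, -0.66, -0.47, 1.13, 0.75 and -0.25 among genes with a peak (where the other genes have another kind of peak), and -0.052, 0.088, 0.98, 0.65 and 0.17 within length classes. Against genes without any peak, the promoter, CpG island promoter and downstream values were 0.93, 0.91 and 1.15. For CpG island promoters, peaks of at least 10 reads gave 0.44 and peaks with reads in all 3 MeDIP libraries 0.55. The next settings were chosen after seeing the data. Among genes named for a merged peak, within length classes, the differences were -0.42, -0.26, 0.85, 0.40 and -0.018. Against genes whose peaks of that kind had 0 reads at 28°C, they were 0.16, 0.54, 0.58, 0.14 and 0.11. Without 1 replicate, a setting planned beforehand, the main differences (0.62, 0.50, 1.72, 1.49 and 0.80) ranged over 0.58 to 0.67, 0.49 to 0.51, 1.62 to 1.81, 1.39 to 1.57 and 0.75 to 0.84. Only the exon and intron differences were positive under both length settings and among genes with a peak, and only the exon difference was positive in every setting tried. The cause of these moves was not tested.

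The gap in promoter peak share between the highest and lowest expression class (6.63 percentage points) was 4.67 for peaks with reads in all 3 MeDIP libraries, 10.1 against genes with 0 counts, 0.60 within length classes (a mean of opposite signs: 16.6, 16.5 and 14.5 in the shortest and -7.74, -7.77 and -5.31 in the longest) and, chosen after seeing the data, -9.46 among genes named for a merged peak. It was 6.24 to 7.08 without 1 replicate. The biological coefficient of variation (0.491) was 0.573 with no filter and 0.237 to 0.577 without 1 replicate, the lowest without replicate 3. No paired analysis was possible because all RNA libraries are of 1 condition. The pooled MeDIP library gives no error for any peak, and replicate 3, with the lowest depth, has the highest floor.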
